A study of Mus musculus with 12 samples.

Results

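The enzymes that make prostanoids and leukotrienes from arachidonic acid were followed in M2-like polarized BMDM, macrophages grown from mouse bone marrow with M-CSF and then given IL4. The set holds 10 genes of the 56748 in the count table and was chosen by name, with earlier results of these data known. All 10 had enough counts to be tested. They are the cyclooxygenases Ptgs1 and Ptgs2, the prostanoid synthases Ptges, Hpgds and Tbxas1, the leukotriene genes Alox5, Alox5ap, Ltc4s and Lta4h, and Pla2g7, which inactivates platelet-activating factor (PAF). Total RNA was sequenced from 12 libraries, 3 for each of 4 conditions.

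All 12 libraries came from cells of female C57BL/6J mice, differentiated with M-CSF at 20 ng/mL, polarized for 48 hours in IL4 (10 ng/mL) and cultured in 1 of 4 media for 72 hours more. Untreated control cells received plain medium. The rIFNβ cells received recombinant IFNβ, set to 1500 pg/mL per the labels. The Ifnb1eGFP supernatant came from YUMM5.2 mouse melanoma cells that carried a lentiviral, Dox-inducible (Tet-On) Ifnb1 with an eGFP tag. Dilution brought it to 1500 pg/mL IFNβ. The eGFP supernatant came from YUMM5.2 cells with eGFP alone and was diluted at the same ratio. Both donor lines were cultured for 72 hours with Dox (1 μg/mL). The methods keep these lines in a base medium unlike that of the BMDM, with puromycin. Products of the melanoma cells, that medium and any Dox or puromycin carried over cannot be told apart when eGFP supernatant is set against plain medium. The design text counts 3 mice per condition, and the sources used here do not say whether a mouse gave cells to several conditions. P values therefore measure the spread between these libraries.

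Cyclooxygenases turn free arachidonic acid into prostaglandin H2, and separate synthases then make prostaglandin D2, prostaglandin E2 or thromboxane A2 from it. In the leukotriene branch, 5-lipoxygenase works with its activating protein at the nuclear membrane to make leukotriene A4, which is either hydrolysed to leukotriene B4 or joined to glutathione to give leukotriene C4. Macrophages make mediators of both branches, which act on smooth muscle, blood vessels, platelets and leukocytes through receptors on the cell surface.

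The libraries held 31526034 to 45348457 counts. Of 8 macrophage markers, 8 were tested. Their summed level, with Lyz2 the largest part, was 14300 to 18600 CPM (counts scaled to library size) without and 9850 to 10800 CPM with IFNβ. With IFNβ in either form 5 of them rose and 2, Lyz2 and Itgam, fell. Of 6 markers of IL4-treated macrophages, Mrc1 (609 CPM or more), Chil3 and Retnla (45.4 CPM or more) were well detected, whereas Arg1 was at most at 0.877 CPM and Ccl24 at 0.195 CPM. The summed level of 8 interferon-stimulated genes was 89.7 to 136 CPM in untreated control and 8710 to 9750 CPM in the 6 libraries given IFNβ. In eGFP supernatant it ran from 93.8 to 661 CPM, and the highest value was that of library 2. Mast cell and basophil markers, from cells rich in Hpgds, Alox5 and Ltc4s, were scarce, with 2 of 8 tested (Kit and Gata2), Mcpt4 and Tpsb2 at 0 in all libraries and a summed level of 0.506 to 2.28 CPM. Of 8 neutrophil markers 1 was tested (S100a8). Their summed level, nearly all from S100a8 without IFNβ, was 4.36 to 5.91 CPM without and 0.297 to 1.09 CPM with IFNβ. The other neutrophil markers were at most at 0.253 CPM (Mpo in rIFNβ library 3) and did not all fall. In bulk RNA fewer cells of a type and less RNA per cell cannot be told apart.

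The promoters of the 6 members that passed the test in both IFNβ comparisons are shown because those members moved with IFNβ in opposite directions, Ptgs2, Hpgds and Pla2g7 upward and Tbxas1, Alox5 and Lta4h downward. Each line holds the 250 bases before a RefSeq start of the gene on GRCm38.p6, 5′ to 3′ on the strand of the gene. Matches to any of 6 motifs are in capitals. The gene positions given later are GENCODE spans on GRCm39, and a RefSeq start can lie inside such a span, as that of Tbxas1 does.
Ptgs2 (chr1:150099781-150100030, + strand): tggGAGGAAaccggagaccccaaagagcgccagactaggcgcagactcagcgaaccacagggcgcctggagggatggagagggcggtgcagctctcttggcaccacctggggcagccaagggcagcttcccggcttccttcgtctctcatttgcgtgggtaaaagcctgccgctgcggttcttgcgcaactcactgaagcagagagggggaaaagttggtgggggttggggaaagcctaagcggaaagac
Hpgds (chr6:65144731-65144980, - strand): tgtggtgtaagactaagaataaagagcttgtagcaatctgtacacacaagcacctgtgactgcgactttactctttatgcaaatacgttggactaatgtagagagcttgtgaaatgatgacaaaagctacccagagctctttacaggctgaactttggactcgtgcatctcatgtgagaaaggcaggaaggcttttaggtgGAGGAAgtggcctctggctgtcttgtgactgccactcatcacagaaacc
Pla2g7 (chr17:43568201-43568450, + strand): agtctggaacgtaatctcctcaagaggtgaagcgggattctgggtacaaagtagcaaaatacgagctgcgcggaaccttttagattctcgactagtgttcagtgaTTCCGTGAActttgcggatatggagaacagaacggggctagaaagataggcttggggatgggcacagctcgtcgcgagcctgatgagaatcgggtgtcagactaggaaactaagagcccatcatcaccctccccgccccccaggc
Tbxas1 (chr6:38918736-38918985, + strand): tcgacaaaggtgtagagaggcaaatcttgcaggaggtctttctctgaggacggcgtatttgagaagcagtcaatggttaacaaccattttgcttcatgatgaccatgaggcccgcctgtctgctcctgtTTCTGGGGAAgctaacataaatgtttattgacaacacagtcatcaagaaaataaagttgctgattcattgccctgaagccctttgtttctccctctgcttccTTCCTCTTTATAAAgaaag
Alox5 (chr6:116461179-116461428, - strand): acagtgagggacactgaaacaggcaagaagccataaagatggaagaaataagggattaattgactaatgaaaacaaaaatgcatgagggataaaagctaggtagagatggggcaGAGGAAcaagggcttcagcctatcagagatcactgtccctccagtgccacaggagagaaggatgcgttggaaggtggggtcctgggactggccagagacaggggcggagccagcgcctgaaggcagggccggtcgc
Lta4h (chr10:93453146-93453395, + strand): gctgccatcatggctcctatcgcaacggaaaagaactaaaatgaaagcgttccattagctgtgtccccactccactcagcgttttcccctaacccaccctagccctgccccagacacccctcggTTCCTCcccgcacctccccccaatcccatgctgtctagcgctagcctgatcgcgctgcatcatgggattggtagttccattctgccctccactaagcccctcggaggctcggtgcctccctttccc
Of the 10 members 9 had such a RefSeq window, of 300 bases with 50 from the start on, and Alox5ap had no entry. The motifs were searched on both strands. The core of the interferon-stimulated response element (GAAA, any 2 bases, GAAA) was in 0 of the 9 windows, against 3.44% of 32851 windows over all genes. The interferon gamma-activated site (TTC, any 3 bases, GAA) was in the window of Pla2g7 (8.3% of all windows), at 145 to 137 bases before the start. The STAT6 site (TTC, any 4 bases, GAA) was in those of Ptges and Tbxas1 (6.95%). The PU.1 core GAGGAA, named for a factor that macrophages depend on, was in 8 of 9, all but Pla2g7, against 28.3% of all windows and 31.3% of all genes with a window. Those shares include genes not expressed in these cells, and the share among the genes tested was not counted. Tbxas1 had a TATA box, TATAAA (13.6%), on both strands with overlapping letters, 13 to 6 bases before this RefSeq start. Ptgs2 had the core of a cyclic AMP response element, TGACGT (7.51%), on the opposite strand. It lay 13 to 18 bases after the RefSeq start used here, so outside the bases printed above, and other starts of the gene were not examined. These are letter matches in short windows and not measured sites, and Hpgds, which was higher with IFNβ, and Alox5 and Lta4h, which were lower, had no match but the PU.1 core.

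Given IFNβ in either form, the BMDM had more mRNA of Hpgds, Ptgs2 and Pla2g7 and less of Tbxas1, Alox5 and Lta4h. Ltc4s was also lower in Ifnb1eGFP than in eGFP supernatant. Ptgs1, Ptges and Alox5ap passed the test in neither comparison. The quasi-likelihood test of edgeR, adjusted after Benjamini and Hochberg across 15033 genes, was used throughout. By it 7 of 10 members were called (adjusted p of 0.05 or less) in Ifnb1eGFP against eGFP supernatant, 3 higher and 4 lower, where 55.1% of all genes were called, 30.1% higher and 25.0% lower. In rIFNβ against untreated control 6 members were called, 3 higher and 3 lower, against 55.3% of all genes, 30.7% higher and 24.6% lower. The shares of members called, 70.0% and 60.0%, were near those of all genes in a set this small, and values are given gene by gene. The median log2 fold change of the members was -0.03 with supernatant and -0.19 with rIFNβ, beside 0.03 and 0.04 over all genes tested. No member reached the thresholds the study's methods give (a log2 fold change of 2 or more in size at an adjusted p of 0.01 or less), which 5.39% and 5.77% of all genes did.

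**Figure D1:**
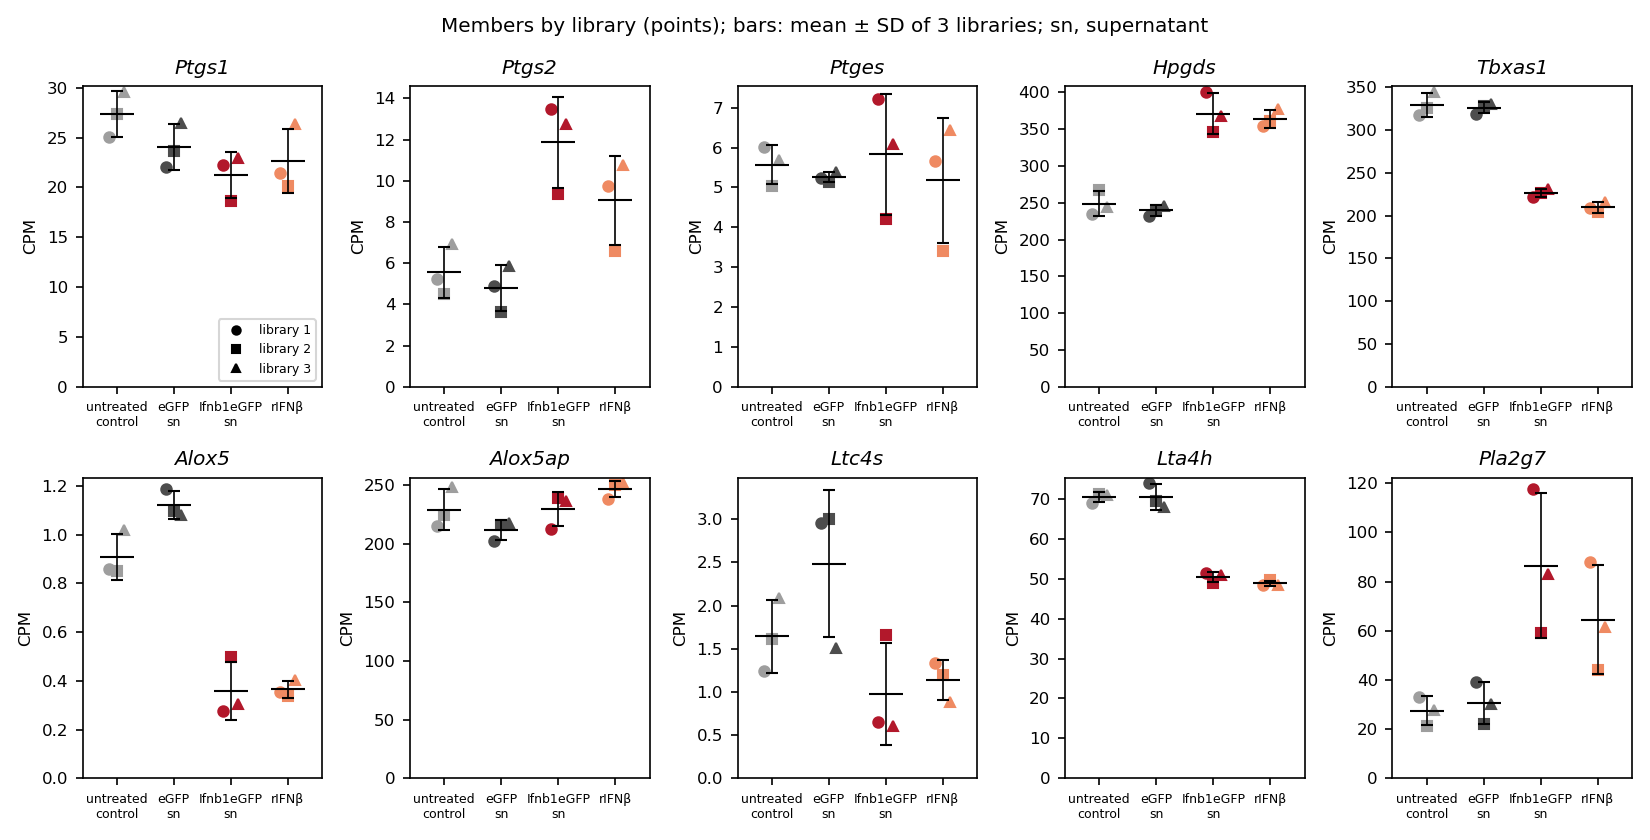
CPM (y axis, from 0) of each of the 10 members in every library (points, with the library number as symbol) by condition (x axis), with the mean and SD of 3 libraries as bars; sn means supernatant. Hpgds and Pla2g7 sat higher, and Tbxas1, Alox5 and Lta4h lower, in all 6 libraries given IFNβ than in all 6 without it.

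The constitutive cyclooxygenase Ptgs1 (chr2:36120438-36142287, + strand; this and the other gene positions are GRCm39 in GENCODE M39, and counts are summed over exons) passed the test in neither comparison. Its level was 25.1, 27.4 and 29.6 CPM in untreated control libraries 1, 2 and 3, 22.0, 23.7 and 26.5 CPM in eGFP supernatant, 22.3, 18.6 and 23.0 CPM in Ifnb1eGFP supernatant and 21.4, 20.2 and 26.3 CPM in rIFNβ. The conditions overlapped. The log2 fold change was -0.18 (SE 0.116, adjusted p = 0.219) in Ifnb1eGFP against eGFP supernatant and -0.27 (SE 0.116, adjusted p = 0.0644) in rIFNβ against untreated control. The second value stands close to the threshold, and leaving out rIFNβ library 3 (adjusted p = 0.0129) or Ifnb1eGFP supernatant library 2 (adjusted p = 0.0421) brought it below. DESeq2 on all 12 libraries also called Ptgs1 lower with rIFNβ (adjusted p = 0.043), as did other fits given at the end.

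The inducible cyclooxygenase Ptgs2 (chr1:149975194-149983978, + strand) was higher with IFNβ. It stood at 5.25, 4.51 and 6.93 CPM in untreated control and 4.88, 3.66 and 5.87 CPM in eGFP supernatant, against 13.5, 9.36 and 12.7 CPM in Ifnb1eGFP supernatant and 9.73, 6.61 and 10.8 CPM in rIFNβ. Every Ifnb1eGFP library was above every library of eGFP supernatant, whereas rIFNβ library 2 lay below untreated control library 3. Ptgs2 rose 2.47-fold with Ifnb1eGFP supernatant (log2 fold change 1.31, SE 0.234, adjusted p = 0.000581) and 1.61-fold with rIFNβ (0.69, SE 0.234, adjusted p = 0.0263). The second call was lost when untreated control library 1 or 2 or rIFNβ library 1 or 3 was left out (adjusted p from 0.0735 to 0.102). The interaction, the log2 fold change with supernatant minus that with rIFNβ, was 0.62 (95% confidence interval -0.11 to 1.34, adjusted p = 0.926). Ptgs2os, annotated on the opposite strand over 476 of its exon bases, held at most 1.21% of the counts of Ptgs2.

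Ptges (chr2:30779483-30820196, - strand), the inducible terminal synthase of prostaglandin E2, did not pass the test. Its level was 6.01, 5.03 and 5.68 CPM in untreated control, 5.23, 5.14 and 5.40 CPM in eGFP supernatant, 7.21, 4.20 and 6.08 CPM in Ifnb1eGFP supernatant and 5.67, 3.42 and 6.44 CPM in rIFNβ. The IFNβ libraries lay on both sides of the others. The log2 fold change was 0.15 (95% confidence interval -0.34 to 0.64) with supernatant and -0.11 (-0.61 to 0.39) with rIFNβ.

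Hpgds (chr6:65094001-65121983, - strand), the glutathione-dependent synthase of prostaglandin D2, rose in both comparisons. It stood at 234, 267 and 244 CPM in untreated control and 232, 241 and 246 CPM in eGFP supernatant, and at 400, 346 and 368 CPM in Ifnb1eGFP supernatant and 354, 361 and 378 CPM in rIFNβ. All 6 libraries given IFNβ were above all 6 others. The rise was 1.55-fold with supernatant (log2 fold change 0.63, SE 0.0632, adjusted p = 5.89e-06) and 1.47-fold with rIFNβ (0.55, SE 0.0632, adjusted p = 1.72e-05).

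Tbxas1 (chr6:38852203-39061523, + strand) encodes the synthase of thromboxane A2, a platelet activator and vasoconstrictor, and it fell. Its level was 318, 325 and 344 CPM in untreated control and 319, 329 and 331 CPM in eGFP supernatant, and 222, 226 and 231 CPM in Ifnb1eGFP supernatant and 209, 204 and 216 CPM in rIFNβ. The 3 libraries of each condition lay close together and the IFNβ libraries were all below the rest. The log2 fold change was -0.53 (SE 0.0428, adjusted p = 1.08e-06) with supernatant, 1.44-fold lower, and -0.65 (SE 0.0429, adjusted p = 1.75e-07) with rIFNβ, 1.57-fold lower. The summed level of 6 platelet and megakaryocyte markers, nearly all from Pf4, which macrophages also express, was 172 to 311 CPM without and 142 to 246 CPM with IFNβ, and the part of such cells was not tested. Tbxas1, which uses the same precursor as Hpgds, had the higher CPM per kb by longest transcript in the 6 libraries without IFNβ on average (72.1 and 71.5 against 61.9 and 59.7 CPM per kb) and the lower with IFNβ (49.6 and 46.0 against 92.5 and 90.8). By merged exon length, which counts every annotated exon base, Hpgds was the higher in all 4 conditions, so this order depends on the length used.

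In the leukotriene branch 3 of 4 members were called lower with Ifnb1eGFP supernatant, where 25.0% of all genes were, and 2 of 4 with rIFNβ, where 24.6% were. One of the 3, Ltc4s, lost its call without a single library. Alox5 (chr6:116387032-116438139, - strand), which encodes 5-lipoxygenase, was at the low end of what could be measured, with 11 to 47 counts per library. It stood at 0.858, 0.849 and 1.02 CPM in untreated control and 1.19, 1.10 and 1.08 CPM in eGFP supernatant, against 0.278, 0.497 and 0.304 CPM in Ifnb1eGFP supernatant and 0.356, 0.337 and 0.404 CPM in rIFNβ. All IFNβ libraries were below all others. The fall was 3.11-fold with supernatant (log2 fold change -1.64, SE 0.226, adjusted p = 8.21e-05), the largest fold among the members in that comparison, and 2.48-fold with rIFNβ (-1.31, SE 0.232, adjusted p = 0.000522). Some markers of other cells that make leukotrienes were lower in the same libraries and others were not. Of the 2 tested mast cell and basophil markers, Gata2 fell (log2 fold change -2.50 and -1.68) and Kit was not called (-0.47, adjusted p = 0.321, and -0.45, adjusted p = 0.318). Among those not tested, Mcpt8 had mean levels of 0.00976 and 0.0168 CPM in the conditions without IFNβ and 0.0998 and 0.164 CPM with Ifnb1eGFP supernatant and rIFNβ, and Cpa3 one of 0.129 CPM in rIFNβ against 0.0318 CPM in untreated control, all from a few counts. S100a8, the only neutrophil marker tested, fell (-3.35 and -4.16). Of the 2 tested dendritic cell markers, Zbtb46 fell in both comparisons (-2.32 and -2.22), whereas Clec9a fell with supernatant (-1.56) and was not called with rIFNβ (-0.22, adjusted p = 0.628). The summed level of 6 dendritic cell markers was 1.56 to 2.03 CPM without and 0.348 to 0.733 CPM with IFNβ, and that of the 8 mast cell and basophil markers 1.66 to 2.28 and 0.506 to 1.90 CPM. The part of such cells in the values of Alox5 and Ltc4s was not tested. The tested genes whose log2 CPM over the 12 libraries was most like that of Alox5 were Abca7 (Pearson's r = 0.989) and Slc16a3 (0.987), as a description over libraries that share conditions.

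Alox5ap (chr5:149196003-149227762, + strand), which presents arachidonic acid to 5-lipoxygenase, was among the most abundant members and passed the test in neither comparison. Its level was 215, 225 and 248 CPM in untreated control, 202, 216 and 217 CPM in eGFP supernatant, 213, 239 and 237 CPM in Ifnb1eGFP supernatant and 239, 250 and 252 CPM in rIFNβ. The conditions overlapped in both comparisons. The log2 fold changes were 0.12 (95% confidence interval -0.02 to 0.25, adjusted p = 0.142) and 0.11 (-0.03 to 0.25, adjusted p = 0.177), and the second passed when untreated control library 3 was left out (adjusted p = 0.0488). With the replicate number as a block in edgeR, Alox5ap was called higher in both comparisons (0.12, adjusted p = 0.0365, and 0.11, adjusted p = 0.0468). Thus Alox5 and its activating protein had different values under IFNβ, a fall of 1.64 on the log2 scale beside an interval that ends at 0.25. The genes most like Alox5ap were Irag2 (Pearson's r = 0.937), Eif3f (0.935) and Nme4 (0.934).

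Lta4h (chr10:93289210-93320749, + strand), the hydrolase that forms leukotriene B4, fell in both comparisons. It stood at 68.9, 71.3 and 71.1 CPM in untreated control and 74.0, 69.3 and 68.0 CPM in eGFP supernatant, and at 51.3, 49.0 and 51.0 CPM in Ifnb1eGFP supernatant and 48.4, 49.6 and 48.4 CPM in rIFNβ. The IFNβ libraries were all below the rest. The log2 fold change was -0.48 (SE 0.0417, adjusted p = 1.82e-06) with supernatant and -0.53 (SE 0.0419, adjusted p = 7.84e-07) with rIFNβ.

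Ltc4s (chr11:50127288-50129443, - strand), the synthase of leukotriene C4, was low and variable. Its level was 1.24, 1.61 and 2.08 CPM in untreated control, 2.96, 3.00 and 1.51 CPM in eGFP supernatant, 0.657, 1.66 and 0.608 CPM in Ifnb1eGFP supernatant and 1.34, 1.19 and 0.884 CPM in rIFNβ. Ifnb1eGFP supernatant library 2 lay above eGFP supernatant library 3, so the groups overlapped. Ltc4s fell 2.55-fold with supernatant (log2 fold change -1.35, SE 0.393, adjusted p = 0.0122) and was not called with rIFNβ (-0.54, SE 0.398, adjusted p = 0.275). The interaction was -0.81 (95% confidence interval -2.04 to 0.42). The call was lost without Ifnb1eGFP supernatant library 3 (adjusted p = 0.0519), and the log2 fold change was -1.97 without library 2 of that condition. The opposite-strand gene Gm26542 shares 268 exon bases with Ltc4s and held up to 11.8% as many counts, so part of the counts of either may belong to the other.

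Pla2g7 (chr17:43878846-43923289, + strand) encodes the secreted acetylhydrolase that cleaves PAF and oxidized phospholipids, and it rose in both comparisons. It stood at 33.3, 21.4 and 27.9 CPM in untreated control and 39.2, 22.3 and 30.3 CPM in eGFP supernatant, and at 117, 58.9 and 83.2 CPM in Ifnb1eGFP supernatant and 87.8, 43.9 and 61.6 CPM in rIFNβ. The lowest IFNβ library, at 43.9 CPM, was above the highest library without IFNβ, at 39.2 CPM. The rise was 2.83-fold with supernatant (log2 fold change 1.5, SE 0.309, adjusted p = 0.00157) and 2.34-fold with rIFNβ (1.23, SE 0.311, adjusted p = 0.00566).

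**Figure D2:**
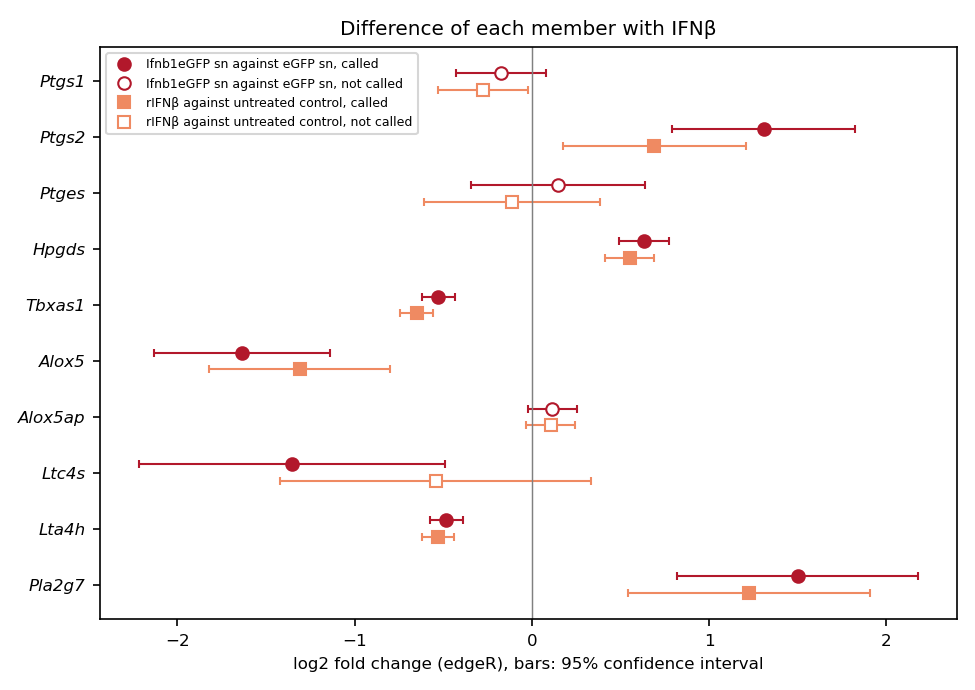
Log2 fold change of each member (x axis) with its 95% confidence interval, for Ifnb1eGFP against eGFP supernatant (circles) and rIFNβ against untreated control (squares); filled symbols passed the test. The intervals of Ptgs1 with supernatant, of Ltc4s with rIFNβ, and of Ptges and Alox5ap in both comparisons cross 0, and the widest belong to Ltc4s and Pla2g7.

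Over the members, the libraries of Ifnb1eGFP and eGFP supernatant did not overlap for 3 members that were higher with IFNβ (32.4% of all genes) and 3 that were lower (26.6%). Those of rIFNβ and untreated control did not overlap for 2 that were higher (36.4%) and 3 that were lower (29.7%). Between all 6 libraries given IFNβ and all 6 others, 2 members were higher without overlap (25.5% of all genes) and 3 lower (21.2%).

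Whether tumor cell supernatant did more than its IFNβ was asked by setting Ifnb1eGFP supernatant against rIFNβ. The supernatant also brought the medium of the donor cells and any Dox or puromycin carried over, which this comparison cannot separate from products of the melanoma cells. The interaction asked whether the difference made by IFNβ was unlike in supernatant and in plain medium. In Ifnb1eGFP supernatant against rIFNβ 0 members were called by edgeR in the model without a term for the replicate number (0.16% of all genes), with 1 member, Tbxas1, at an unadjusted p under 0.05 (8.57% of all genes), and DESeq2 called 0. Tbxas1 was 1.08-fold higher with supernatant without overlap of the libraries (8.22% of all genes; log2 fold change 0.11, 95% confidence interval 0.02 to 0.20, adjusted p = 0.56). The interval of Ptgs2 was -0.10 to 0.89 and that of Pla2g7 -0.23 to 1.09, which leaves room for a sizeable difference, whereas those of Lta4h (-0.04 to 0.14) and Hpgds (-0.11 to 0.17) were narrow. With the replicate number as a block in edgeR, Pla2g7 was called higher with supernatant (0.43, SE 0.0639, adjusted p = 0.0307), as 0.319% of all genes were called. In the interaction edgeR called 0 members (0.0% of all genes), with 0 at an unadjusted p under 0.05 (4.4%), and DESeq2 also called 0.

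The supernatant of eGFP cells without IFNβ was set against plain medium as the background of the supernatant itself. Here edgeR called 0 members (0.299% of all genes), with 0 at an unadjusted p under 0.05 (8.0%), and DESeq2 called 0. Alox5 had higher values in all 3 eGFP supernatant libraries than in all 3 controls (7.96% of all genes; log2 fold change 0.30, SE 0.209, adjusted p = 0.853). The log2 fold change of Ltc4s was 0.59 (95% confidence interval -0.25 to 1.42) and that of Lta4h 0.00 (-0.09 to 0.09). Without eGFP supernatant library 2, whose interferon-stimulated genes were raised, all 7 calls of Ifnb1eGFP against eGFP supernatant held, with log2 fold changes of 1.14 for Ptgs2, 1.31 for Pla2g7, 0.63 for Hpgds, -0.52 for Tbxas1, -1.65 for Alox5, -1.20 for Ltc4s (adjusted p = 0.0442) and -0.49 for Lta4h.

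Per kb of merged exons the members spanned a wide range. In untreated control Alox5ap was highest (59.3 ± 4.42 CPM per kb, SD, n = 3), followed by Hpgds (31.4 ± 2.12) and Tbxas1 (26.1 ± 1.09), whose ranges of 29.6 to 33.7 and 25.1 to 27.3 CPM per kb did not overlap. Ptgs1 (7.04 ± 0.583), Pla2g7 (6.61 ± 1.42) and Lta4h (6.42 ± 0.118) came next and did not differ beyond their spread. Ltc4s (1.59 ± 0.407), Ptges (1.27 ± 0.112) and Ptgs2 (1.09 ± 0.243) formed a lower group with overlapping ranges, and Alox5 was lowest at 0.221 ± 0.023 CPM per kb. With Ifnb1eGFP supernatant Pla2g7 was higher, at 20.8 ± 7.07 CPM per kb, with a range of 14.2 to 28.2 that took in that of Tbxas1 (17.5 to 18.3), and Ptgs2 at 2.32 ± 0.43 CPM per kb was above Ptges and Ltc4s. The level of Alox5 was 0.0875 ± 0.029 CPM per kb there and 0.089 ± 0.0084 in rIFNβ, below every other member in all 4 conditions by either length. The first place depends on the length used. By merged exons Alox5ap was highest in all 4 conditions, and by longest transcript Hpgds was above it with Ifnb1eGFP supernatant (92.5 against 82.3 CPM per kb) and with rIFNβ (90.8 against 88.4).

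**Figure D3:**
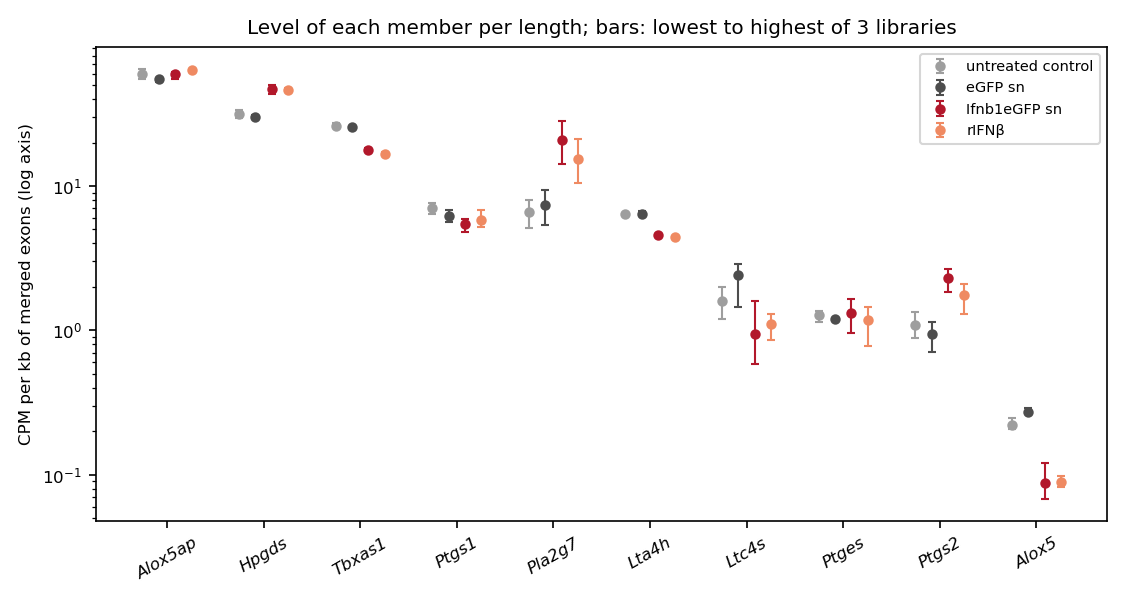
CPM per kb of merged exon length (y axis, log scale) of each member by condition; points are means and bars run from the lowest to the highest of 3 libraries. By this length Alox5ap leads in every condition and Alox5, under 0.3 CPM per kb, is last.

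Ptgs2, Ptges and Pla2g7 also shared a pattern by replicate number. The model without a term for that number left it in the spread between libraries. The library with replicate number 2 was the lowest of its condition in all 4 conditions for these 3 members, as for 2.49% of all genes tested (4.22% had number 1 and 5.16% number 3 lowest throughout). Divided by the mean of libraries 1 and 3, library 2 stood at 0.587 to 0.701 for Pla2g7, 0.644 to 0.74 for Ptgs2 and 0.565 to 0.968 for Ptges. The fibroblast markers Dcn and Pdgfra had ratios of 0.379 to 0.659 and 0.441 to 0.852. Those of Col1a1 (0.537 to 1.25), Col1a2 (0.432 to 0.998) and Col3a1 (0.431 to 1.04) were not low in every condition. Dcn also rose with IFNβ (log2 fold change 1.80, SE 0.399, adjusted p = 0.00256 with supernatant, and 1.35, SE 0.398, adjusted p = 0.0134 with rIFNβ), from 4.74 to 12.5 CPM without it to 18.8 to 39.7 CPM with it, and so did Pdgfra (1.67, SE 0.349, adjusted p = 0.00175, and 1.17, SE 0.339, adjusted p = 0.0118). The whole list of 5 fibroblast markers, all tested, did not move in 1 direction. With supernatant 2 rose and 1 fell (Col1a1), with rIFNβ 2 rose and 2 fell (Col1a1 and Col3a1), and its summed level was 30.5 to 84.0 CPM without and 50.4 to 79.5 CPM with IFNβ. The part of such cells in the values of Ptgs2, Ptges and Pla2g7 was not tested. With all 4 libraries numbered 2 left out, an alternative chosen after seeing the data, Ptgs2 was called in both comparisons (log2 fold change 1.29, adjusted p = 0.000248, and 0.75, adjusted p = 0.00454), as was Pla2g7 (1.53, adjusted p = 0.000817, and 1.29, adjusted p = 0.0021), Ptges in neither (0.32, adjusted p = 0.0663, and 0.05, adjusted p = 0.753), and the counts of members called were again 7 and 6, beside 48.1% and 46.5% of all genes.

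**Figure D4:**
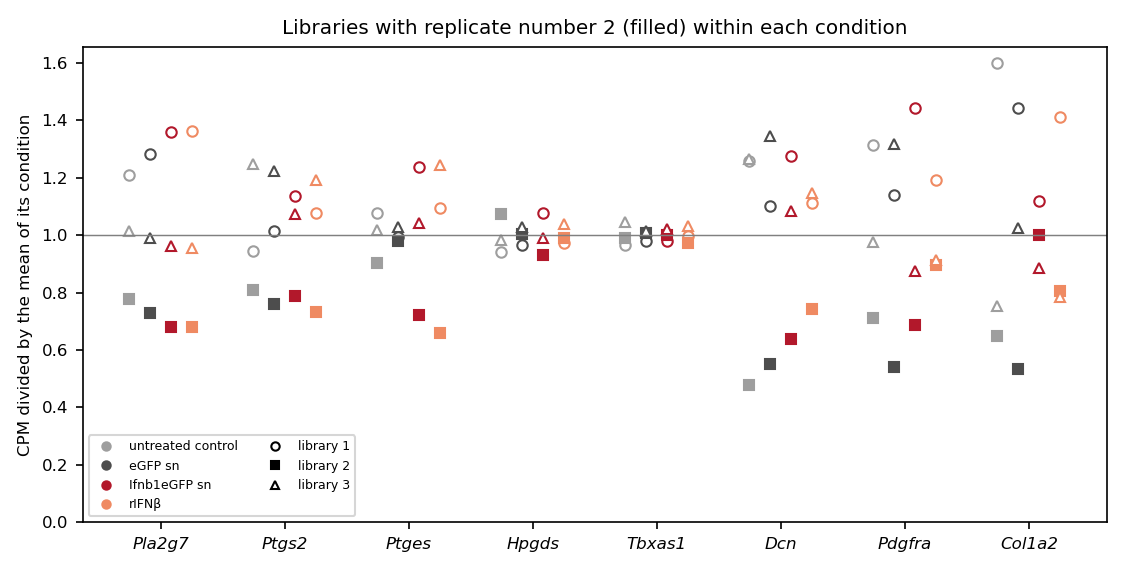
CPM of a library divided by the mean of its condition (y axis) for 5 members and 3 fibroblast markers, with the condition as color and the library number as symbol; libraries numbered 2 are filled. For Pla2g7 and Ptgs2 the filled points are the lowest of each color, whereas Hpgds and Tbxas1 lie near 1.

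The wider pathway was described by a list of 66 further genes, of which 49 could be tested. With Ifnb1eGFP against eGFP supernatant 35 of them were called, 15 higher and 20 lower, and with rIFNβ against untreated control 36 were called, 15 higher and 21 lower. The shares of the genes tested were 71.4% and 73.5%, beside 55.1% and 55.3% of all genes, and the median log2 fold changes were -0.03 and 0.05. The list was chosen with earlier results of these data known, so a share above that of all genes tests nothing about the pathway. Over all genes 30.1% were called higher and 25.0% lower with supernatant, and 30.7% and 24.6% with rIFNβ, which is the background of each count by role. With groups of 2 to 14 genes these counts are descriptions. The 17 genes not tested were at or below 0.41 CPM in every library and include the receptors of thromboxane (Tbxa2r), of prostaglandin D2 (Ptgdr, listed at 0 throughout, and Ptgdr2) and of leukotriene B4 (Ltb4r1 and Ltb4r2), the synthase Ptgds and Alox15.

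Among 14 tested genes that release or store arachidonic acid, 5 rose and 7 fell with supernatant, and 6 rose and 6 fell with rIFNβ. Cytosolic phospholipase A2 (Pla2g4a) rose 1.35-fold with supernatant and 1.34-fold with rIFNβ. Plaat3, a phospholipase and acyltransferase, stood at 5.98 to 7.83 CPM without IFNβ and 24.3 to 29.1 CPM with it, and rose by a log2 fold change of 1.99 (SE 0.108, adjusted p = 3.93e-08) and 2.01 (SE 0.109, adjusted p = 3.46e-08). Pla2g4c rose as well (2.96, SE 0.314, and 3.26, SE 0.328), from a level of 0.0636 to 0.151 CPM, a few counts per library, to 0.745 to 1.19 CPM.

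The genes that fell in this group include Mgll, the monoacylglycerol lipase that can supply arachidonic acid from 2-arachidonoylglycerol, and Daglb, the diacylglycerol lipase that makes the latter. Mgll stood at 113 to 185 CPM without IFNβ and 17.5 to 26.0 CPM with it (log2 fold change -2.91, SE 0.204, adjusted p = 3.23e-07, and -2.82, SE 0.203, adjusted p = 3.6e-07). Daglb stood at 383 to 460 CPM and at 152 to 172 CPM (-1.31, SE 0.053, and -1.49, SE 0.0532). Neither gene's libraries overlapped.

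Of 6 other prostanoid synthases tested, Akr1b3 rose in both comparisons, by log2 fold changes of 0.19 and 0.18, and Ptges3 was called lower with rIFNβ (-0.20, adjusted p = 0.0114) and not with supernatant (-0.09, adjusted p = 0.226), with an interaction of 0.12 (95% confidence interval -0.07 to 0.30) that was not called. All 6 genes of prostanoid transport and breakdown were called in both comparisons, 2 higher and 4 lower, where 55.1% and 55.3% of all genes were called. Hpgd, the dehydrogenase that inactivates prostaglandins, fell from 1.09 to 1.84 CPM to 0.126 to 0.267 CPM (log2 fold change -2.86, SE 0.248, adjusted p = 1.85e-06, and -2.70, SE 0.269, adjusted p = 5.28e-06). Abcc4, an exporter of prostaglandin E2, fell by 1.14 and 1.37 on the log2 scale. Slco2a1, the uptake carrier of prostaglandins, rose by 1.94 (SE 0.404, adjusted p = 0.00171) and 1.10 (SE 0.382, adjusted p = 0.029), and the second call was lost without untreated control library 2 (adjusted p = 0.0887) or 3 (0.0893) or rIFNβ library 1 (0.109). Its libraries numbered 2 were also low, with ratios of 0.357 to 0.865.

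Of 9 prostanoid receptors 4 were tested. With supernatant 1 of them was called higher, Ptger1, and 2 lower, and with rIFNβ 1 was called higher, Ptger2, and the same 2 lower. Ptger1 had means of 16.9 CPM in Ifnb1eGFP and 12.1 CPM in eGFP supernatant, with overlap of the libraries. Ptger4, a receptor of prostaglandin E2 that raises cyclic AMP, fell from 11.4 to 15.7 CPM without IFNβ to 4.50 to 6.59 CPM with it (log2 fold change -1.33, SE 0.0938, and -1.36, SE 0.0928). Ptgir, the prostacyclin receptor, fell from 15.8 to 20.8 CPM to 7.06 to 9.33 CPM (-1.31, SE 0.125, and -1.14, SE 0.125). Ptger2, another receptor of prostaglandin E2 that raises cyclic AMP, had its lowest values, 6.09 to 6.98 CPM, in untreated control and 8.58 to 9.97 CPM in the other 9 libraries. It was higher in rIFNβ (log2 fold change 0.50, SE 0.0722, adjusted p = 0.000106) and in eGFP supernatant (0.41, SE 0.0723, adjusted p = 0.0439) than in untreated control, and the second call was lost in the fit without any 1 of 11 libraries (adjusted p from 0.0552 to 0.204). Its interaction, -0.41, was not called (adjusted p = 0.856).

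Downstream of leukotriene synthesis, both receptors tested, Cysltr1 and Cysltr2, which bind cysteinyl leukotrienes, rose. Cysltr1 stood at 10.0 to 11.9 CPM without IFNβ and 33.3 to 41.5 CPM with it (log2 fold change 1.77, SE 0.0796, adjusted p = 9.32e-09, and 1.61, SE 0.0801, adjusted p = 1.74e-08). Cysltr2 stood at 1.85 to 2.75 CPM and at 12.7 to 15.1 CPM (2.46, SE 0.129, adjusted p = 3.24e-08, and 2.52, SE 0.132, adjusted p = 2.66e-08). The values with and without IFNβ were far apart, and the receptors were thus higher where Alox5, and with supernatant Ltc4s, were lower.

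Of the 6 genes of leukotriene export, conversion and breakdown that were tested, 4 fell in both comparisons. They are Abcc1, an exporter of leukotriene C4 (log2 fold change -0.90 and -1.03), Mgst2 and Mgst3, microsomal glutathione transferases (-1.53 and -1.57 for Mgst2, -1.23 and -1.32 for Mgst3), and Cyp4f18, which hydroxylates leukotriene B4 (-1.53 and -1.45). Dpep2, a dipeptidase that turns leukotriene D4 into leukotriene E4, was lower in eGFP supernatant than in untreated control (log2 fold change -0.32, SE 0.0424, adjusted p = 0.00892, lost at adjusted p of 0.0504 to 0.0547 without untreated control library 2 or eGFP supernatant library 1 or 2). Its level was 395, 412 and 401 CPM in untreated control, 315, 320 and 331 CPM in eGFP supernatant, 332, 361 and 350 CPM in Ifnb1eGFP supernatant and 354, 363 and 351 CPM in rIFNβ. The count table held another row named Dpep2, with fewer counts, which was not used.

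Among other lipoxygenases and lipid mediator receptors, Fpr2, a receptor of formyl peptides and lipoxin A4, rose from 0.0293 to 0.227 CPM without IFNβ to 0.475 to 1.06 CPM with it (log2 fold change 2.29, SE 0.525, adjusted p = 0.00315, and 2.73, SE 0.581, adjusted p = 0.00188). Without untreated control library 1 the second value was 3.68, and a library held as little as 1 count. Alox8 was at 0.126 to 0.301 CPM without and 0 to 0.0745 CPM with IFNβ, which is at most 3 counts in a library, and no fold is given. Of 6 genes of PAF synthesis, breakdown and reception, the receptor Ptafr rose (log2 fold change 0.53 and 0.42), and Lpcat1 (-0.56 and -0.57) and the intracellular acetylhydrolase Pafah2 (-0.84 and -0.79) fell in both comparisons. Pla2g7 and Pafah2 thus had opposite signs. Of the acetylhydrolase subunits, Pafah1b2 was called higher with supernatant and not called with rIFNβ, and Pafah1b3 was called in neither comparison. In Ifnb1eGFP supernatant against rIFNβ and in the interaction edgeR called 0 of the 49 genes.

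**Figure D5:**
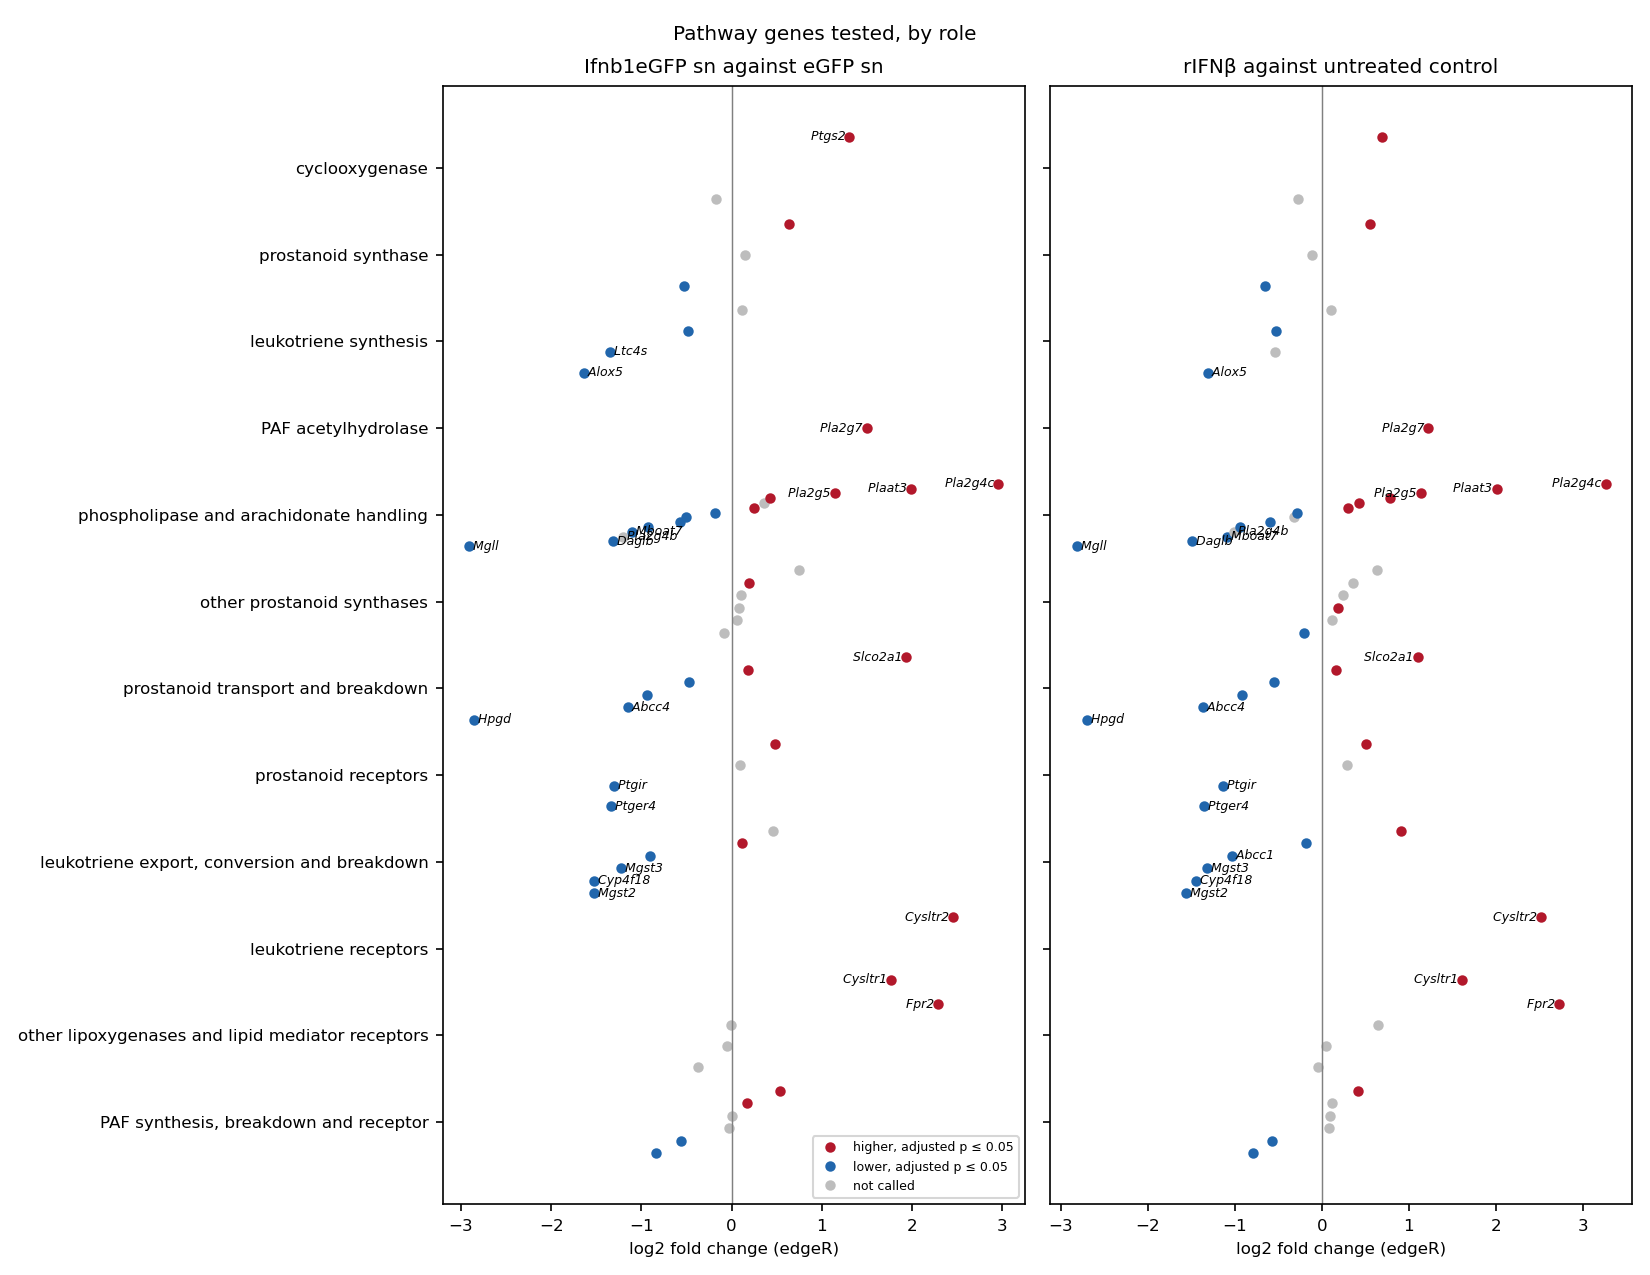
Log2 fold change (x axis) of the 10 members and the tested genes of the wider list except Alox8, 1 point per gene, grouped by role (y axis), for Ifnb1eGFP against eGFP supernatant (left) and rIFNβ against untreated control (right). Red points were called higher, blue points lower and gray points not, and genes with a log2 fold change of 1 or more in size are named; both leukotriene receptors lie to the right.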

How the data were processed

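M2-like BMDM were profiled by total RNA sequencing, with 4 conditions of 3 libraries each. The authors made TruSeq Stranded Total RNA libraries and deposited expected counts per Ensembl gene without normalization. The submitters' processing notes name RSEM 1.3.3 and DESeq2. The methods name the build as GRCm39 mm10, which joins 2 builds. The strand setting of the counting is not given in the sources used here. Samples were grouped by treatment label and replicate number.

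Expected counts were rounded, since 12% of values were not whole, and analysed with edgeR 4.0.16 in R 4.3.3. Genes that passed filterByExpr (15033 of 56748) were scaled by TMM factors and fitted in 1 quasi-likelihood model over 12 libraries, with 5 comparisons and Benjamini-Hochberg adjustment over all genes tested. CPM were counts over TMM-scaled library totals (31526034 to 45348457 counts before scaling). The standard error was taken as the size of the log2 fold change over the square root of F. Fold changes from few counts depend on the prior count, and log2 CPM used 2. With 3 libraries against 3 an exact permutation test cannot reach a p of 0.05, so the model alone was used.

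Gene names came from GENCODE M39, which matched 56017 of 56748 genes. The members, the wider pathway list and the marker lists were chosen with earlier results of these data known. Of the wider list the text names, in each role, up to 4 called genes with a log2 fold change of 1 or more in size, and any gene called in eGFP supernatant against untreated control. Pla2g4a, Akr1b3, Ptges3, Ptger1, the PAF genes and genes not tested were named after their values were seen. Counts of 3 or fewer in every library of a group give no fold. Alternatives were RLE factors, library totals, DESeq2 1.42.0, no filter, the replicate number as a block, the compared conditions alone, other thresholds, the longest transcript as gene length, and each library left out in turn.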

Additional observations from a re-analysis of the deposited data

Results flagged for a closer look

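Dpep2, the dipeptidase that makes leukotriene E4, stood out because its libraries moved in opposite directions with IFNβ. Relative to eGFP supernatant it was higher in all 3 Ifnb1eGFP libraries (log2 fold change 0.11, SE 0.0423, adjusted p = 0.0438 by edgeR), and relative to untreated control it was lower in all 3 rIFNβ libraries (-0.18, SE 0.0423, adjusted p = 0.00374). The interaction was 0.29 (95% confidence interval 0.16 to 0.42) and was not called over all genes tested (adjusted p = 0.67). The rise with supernatant was lost under RLE factors (adjusted p = 0.15), DESeq2 (0.0804), no filter (0.324), the compared conditions alone (0.15) and without most single libraries (up to 0.133). The mean was 403 CPM in untreated control, 322 CPM in eGFP supernatant, 348 CPM in Ifnb1eGFP supernatant and 356 CPM in rIFNβ. The count table held 2 rows named Dpep2, and the one with more counts is described. Of its 12 values 0 were whole, so part of its reads may be shared with other entries. What that sharing did to these differences was not tested.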

How the results depend on the processing

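The 6 members called in both IFNβ comparisons kept their direction in every other fit, and 5 of them kept their calls at an adjusted p of 0.05 (Ptgs2 with rIFNβ lost its call without any of 4 single libraries). Stricter thresholds on the fold ended calls. At a log2 fold change of 2 or more in size with an adjusted p of 0.01 or less, 0 members and 5 genes of the wider list were called with supernatant and 0 and 7 with rIFNβ. At 1 or more with an adjusted p of 0.05 or less these were 4 and 18, and 2 and 19, beside 2317 and 2400 of all 15033 genes tested, and Hpgds, Tbxas1 and Lta4h were called at neither fold. For eGFP supernatant against untreated control the wider list had 2 calls, which became 4 with DESeq2, 1 with library totals, 1 without the filter, 1 with the compared conditions alone, 0 at either stricter fold, 0 without all libraries numbered 2, and 0 to 2 without single libraries. For Ifnb1eGFP supernatant against rIFNβ the wider list had 0 to 2 calls without single libraries (2 without Ifnb1eGFP library 2). DESeq2 gave 1 call in the interaction. The cause was not tested.

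With the replicate number as a block, 8 members were called in each IFNβ comparison (59.0% and 58.8% of all genes), 1 in Ifnb1eGFP supernatant against rIFNβ (Pla2g7, 0.43, SE 0.0639, adjusted p = 0.0307, where 0.319% of all genes were called and the fit without the block gave 0 members), and Alox5ap (adjusted p = 0.0365 and 0.0468) and Ptgs1 with rIFNβ (0.00997) gained a call. Deviations from the condition means correlated at 0.0582 to 0.252 between libraries of the same number (18 pairs) and at -0.318 to 0.147 between others (36), and 12 of 12 libraries correlated best with their own number. Not every same-number pair passed 0.1, and the sources do not say what the number stands for, so the block was an alternative. Ptgs1 with rIFNβ was also called under RLE factors (adjusted p = 0.0474), DESeq2 (0.043) and the compared conditions alone (0.0388).

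Signs turned only for values not called. Without single libraries, log2 fold changes ran from -0.17 to 0.034 for Ptgs1, -0.055 to 0.37 for Ptges, -0.026 to 0.076 for Hpgds, -0.38 to 0.12 for Alox5 and -0.84 to 0.036 for Ltc4s in Ifnb1eGFP supernatant against rIFNβ (that of Alox5 with the libraries numbered 2 left out together included). For Ptges they ran from -0.063 to 0.34 with supernatant and -0.30 to 0.12 with rIFNβ (0.055 without all libraries numbered 2). In eGFP supernatant against untreated control they ran from -0.095 to 0.0018 for Hpgds, -0.039 to 0.022 for Tbxas1, -0.037 to 0.026 for Lta4h and -0.066 to 0.34 for Pla2g7, and in the interaction from -0.051 to 0.067 for Alox5ap. Without the filter Tbxas1 was at 0.018 and Alox5ap at -0.013 in these last comparisons. Lta4h was at -0.0072 with library totals and -0.0008 with the compared conditions alone. By longest transcript 31 of 40 levels per kb moved by over 1 SD. Depth limits Alox5, Ltc4s, Pla2g4c, Fpr2 and Alox8 most.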
